A study of Rattus norvegicus with 16 samples.

Results

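The nuclear-encoded subunits of the mitochondrial respiratory chain were taken from the gene table by symbol. A protein-coding gene was a member when its symbol began with Nduf followed by A, B, C, S or V and a digit, with Uqcr, with Cox and a digit from 4 to 8, or with Atp5, or was Cyc1 or one of the Sdh genes from a to d. The rule found 89 of the 32623 genes listed, of which 38 belong to complex I, 4 to complex II, 10 to complex III, 20 to complex IV and 17 to complex V. The aim was to compare the complexes over 2 rat kidney cell lines and 2 values of extracellular pH.

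Complex I takes electrons from NADH and complex II takes them from succinate, and both pass them through ubiquinone to complex III, from there through cytochrome c to complex IV, and from there to oxygen. Complexes I, III and IV pump protons across the inner mitochondrial membrane, and complex V, the ATP synthase, lets them flow back while it makes ATP. The proximal tubule, whose transport work is paid for almost wholly by this pathway, is one of the tissues richest in mitochondria.

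Poly(A) RNA was sequenced from NRK-52E, a rat renal epithelial line, and from NRK-49F, a rat renal fibroblast line, each kept in co-culture with the other. The NRK-52E cells grew on permeable filter inserts placed above NRK-49F cells in 6-well plates, so that the lines shared the medium and RNA was taken from each line by itself, although the study's methods allow a very small chance that a few fibroblasts adhered to the filter. After 24 h without added serum the co-cultures were held for 48 h at pH 7.4, the control (pH 7 in the labels, 7.4 in the methods), or at pH 6.0, the acidosis condition. Each of the 4 groups has 4 libraries, named here by the numbers in their labels, and values are listed in the order N1, N2, N5 and N6 (NRK-52E, pH 7.4), N3, N4, N7 and N8 (NRK-52E, pH 6.0), N9, N10, N13 and N14 (NRK-49F, pH 7.4) and N11, N12, N15 and N16 (NRK-49F, pH 6.0). No source states that the 4 libraries of a group came from separate cultures, so that the p-values measure only the spread between these libraries, which may be technical.

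Library totals ran from 16201084 counts (N12) to 34784862 counts (N16). Levels are given as FPM, fragments counted per 1e+06 of the library total after scaling by edgeR's TMM factor, and gene lengths were not used, so that shares and orders among genes are of fragments counted, not of transcripts. A member was called higher or lower when its Benjamini-Hochberg adjusted p-value over all genes tested was below 0.01 in both edgeR and DESeq2. Fold changes are on the log2 scale with their standard errors (SE) from edgeR. In these bulk libraries, fewer cells of a kind and less RNA per cell cannot be told apart. The 37 genes of the mitochondrial genome are listed with a count of 0 in every library, so that the subunits they encode were not analysed here.

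The labelled lines were checked against 12 epithelial and 12 fibroblast marker genes. Of the epithelial markers, Epcam, Esrp1, Esrp2, Cldn3, Cldn4, Cldn7 and Krt18 were at or near 0 in both lines, and Cdh1 averaged 1.62 FPM in NRK-52E at pH 7.4 and 0.315 FPM at pH 6.0. The tight junction gene Ocln was present in NRK-52E, with 42.5, 38.6, 40.5 and 43.0 FPM at pH 7.4 and 10.3, 8.14, 10.4 and 9.83 FPM at pH 6.0, and reached at most 0.332 FPM in any NRK-49F library. Krt8 was the most abundant epithelial marker, and its mean fell at pH 6.0 from 430.4 to 316 FPM (NRK-52E) or from 848 to 206 FPM (NRK-49F). The summed epithelial markers lay between 336 and 527 FPM in NRK-52E, and between 200.4 and 950.4 FPM in the other line. Among the fibroblast markers, Pdgfra averaged 391.9 and 368 FPM in NRK-49F at pH 7.4 and 6.0 against 0.286 and 0.0561 FPM in NRK-52E. Col1a1 averaged 6205 and 8288 FPM in NRK-49F against 23.6 and 18.0 FPM in NRK-52E. Col3a1 went the other way, with means of 6221 and 2630.4 FPM in NRK-52E against 458 and 53.9 FPM in NRK-49F, and Thy1 had no count in either line. The summed fibroblast markers lay between 18587 and 27454 FPM in NRK-49F, where Fn1 or Col1a1 was highest, and between 2406 and 7674 FPM in the other line, where Col3a1 was highest. At pH 6.0 the epithelial marker Tjp3 rose in NRK-52E by 1.32 and Ocln fell there, at -2.11. Of the fibroblast markers Postn fell in NRK-52E, at -2.37. Pdgfrb, Col3a1 and Fn1 fell in both lines, at -1.53, -1.26 and -2.04 (NRK-52E) and -2.01, -3.10 and -0.57 (NRK-49F), the last lost without N9, N10, N12, N14 or N15 at values from -0.56 to -0.49. Vim fell in both lines too, at -1.06 (NRK-52E) and -1.47 (NRK-49F). Of 10 fibroblast markers tested in NRK-49F, 5 were lower and 0 higher, against 19.4% lower and 18.4% higher of all genes. Of 9 tested in NRK-52E, 7 were lower and 0 higher, against 28.5% lower and 28.2% higher of all genes. The lines separated by Ocln, Pdgfra and Col1a1, while several defining epithelial markers were absent from the line labelled epithelial. The part of the marker genes that differed with pH in the results that follow was not tested.

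Some libraries stood apart within their group. The summed FPM of the 89 members was 8305, 7171, 6250.1 and 7672 in NRK-52E at pH 7.4, and 11337, 9079.8, 9999.5 and 12839 at pH 6.0. In NRK-49F the sums were 11176, 11116, 14304 and 11589 at pH 7.4, and 10369.5, 12155, 12368 and 11599.7 at pH 6.0. N5 was thus lowest and N8 highest among the NRK-52E libraries, all 4 acidosis libraries lay above all 4 controls in that line, and N13 was highest among all 16 libraries. As shares of the library total, without TMM, N4 (0.943%) was below the control N1 (0.953%), and N8 (1.30%) was above N13 (1.24%). The 72 cytosolic ribosomal protein genes followed the same order at these libraries, with 52171, 43363, 34922 and 47136 FPM in NRK-52E at pH 7.4, 83172, 56673, 61660 and 84021 FPM at pH 6.0, 90713, 93701, 115427 and 84462 FPM in NRK-49F at pH 7.4, and 73129, 90820, 88474 and 76844 FPM at pH 6.0. Their part in the results was not tested.

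**Figure D1:**
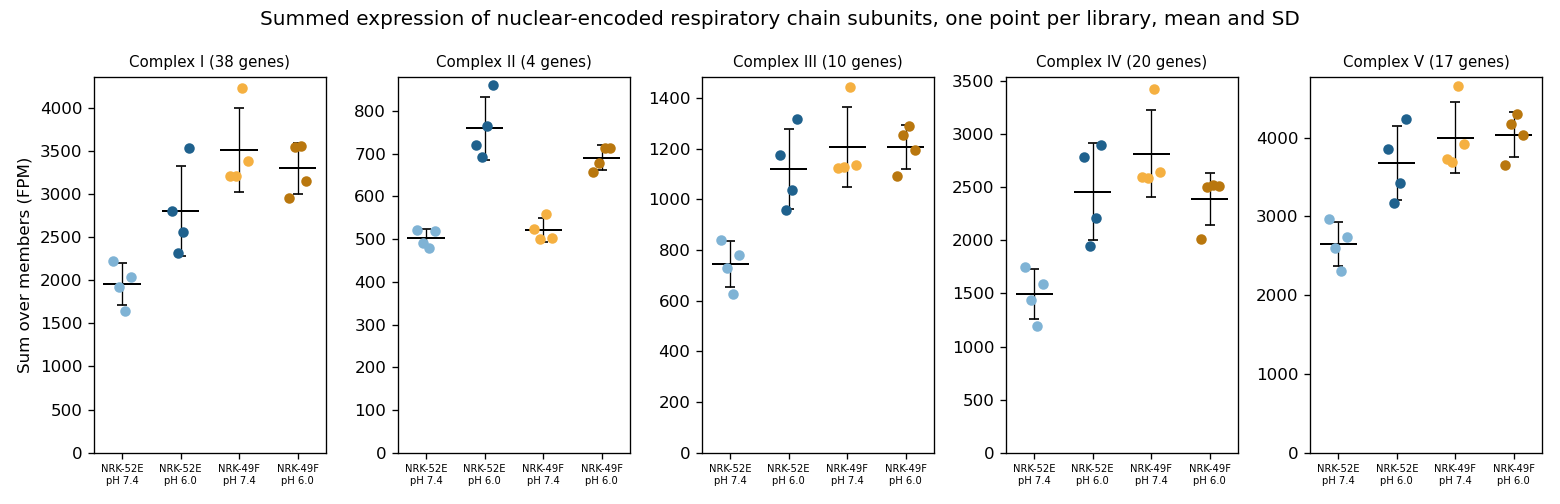
Summed level of the members of each complex in FPM (vertical axes start at 0), by cell line and pH, where each point is 1 library and the bar is the mean of 4. In NRK-52E the 4 libraries at pH 6.0 lie above the 4 at pH 7.4 in every complex (with library totals in place of TMM only in complexes II, III and IV), and in NRK-49F the libraries at pH 6.0 lie above the controls in complex II and below them in complex IV.

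In NRK-52E at pH 6.0 against pH 7.4, 42 of the 82 members tested (51.2%) were higher, where 28.2% of the 13735 genes tested were higher, and 1 member (1.22%) was lower, where 28.5% of genes were lower. The median log2 fold change was 0.53 over the members and 0.00 over all genes. The library names carry a second number of no stated meaning, and within number 21 only the members' median was 0.29 and within number 22 only 0.73, with 11 members higher and none lower in each. Of all genes, 2488 were higher and 2756 lower of 13903 within number 21, and 1433 and 1387 of 13952 within number 22. With the second number as a covariate 37 members were higher and 0 lower, against 3731 and 3820 of 13735 genes. Atp5f1a (-0.32), Atp5f1e (0.74), Cox5b (0.60), Cox7c (0.59), Ndufs3 (0.51), Ndufv2 (0.53) and Uqcrc1 (0.34) then lost their calls, and Ndufa10l1.1 (0.44) gained one. Every complex held higher calls, to be set against the 28.2% of all genes. They were 15 of 36 in complex I (41.7%, median 0.46) and 3 of 4 in complex II (75%, median 0.56). Complex III had 7 of 10 (70%, median 0.50), complex IV 9 of 15 (60%, median 0.61) and complex V 8 of 17 (47.1%, median 0.53). The counts depended on single libraries, with 26 members higher without N5, where 3302 of 13905 genes were higher, and 47 without N4, where 3738 of 13900 were. Without N5 the members' median stood 0.44 above that of all genes, against 0.52 with all libraries. The share of higher calls in complex I then lay below that of all genes. Complex I lost the calls of Ndufa3, Ndufa5, Ndufa6, Ndufb6, Ndufb10, Ndufs3, Ndufs4, Ndufs7 and Ndufv2. Complex III then lost those of Uqcrc1, Uqcrc2 and Uqcrh, complex IV those of Cox5b and Cox7c, and complex V those of Atp5f1e and Atp5pb. The 1 lower call, Atp5f1a, was lost when N1, N2, N3, N4, N6 or N7 was left out. With library totals in place of TMM, the median over all genes shifted to -0.21 and that over the members to 0.31, so that the members stood 0.52 above all genes under both scalings, and 28 members were higher and 1 lower. The split of all calls moved from 49.7% higher to 37.6% higher under that scaling in both tools. The sum of complex I averaged 1956 FPM (SD 244, n = 4) at pH 7.4 and 2802 FPM (SD 526, n = 4) at pH 6.0. Complex II averaged 503 FPM (SD 21.1) and 759 FPM (SD 73.8). For complex III the means were 744 FPM (SD 90.1) and 1121 FPM (SD 158). Complex IV went from 1492 FPM (SD 235) to 2458 FPM (SD 457), and complex V from 2654 FPM (SD 279) to 3673 FPM (SD 469).

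In NRK-49F at pH 6.0 against pH 7.4, 7 of 81 members tested (8.64%) were higher and 6 (7.41%) lower, against 18.4% higher and 19.4% lower of the 13339 genes tested. The members' median was -0.08, which turned to 0.02 without N13, and that of all genes 0.00. Those called lower included Ndufa13, Ndufs8, Ndufv3.1, Cox4i1 and Cox5b, and those called higher were Ndufs1, Sdha, Sdhd, Cyc1, Cox6a2, Atp5if1 and Atp5mc1. Within number 20 only the members' median was 0.03, with 11 higher and 3 lower, and within number 21 only it was -0.19, with 3 higher and 1 lower. Of all genes, 2327 were higher and 2353 lower of 13379 within number 20, and 999 and 981 of 13861 within number 21. With the second number as a covariate Cox5b (-0.48) lost its call and Ndufa1 (-0.49) gained one. The number higher became 11 without N13, and the number lower became 3 without N13 and 2 without N11. The complexes differed in direction, since the median was 0.35 in complex II and -0.24 in complex IV, with -0.06 in complex I (0.07 without N13), -0.12 in complex III and -0.12 in complex V. The sums were 3505 FPM (SD 487, n = 4) at pH 7.4 and 3299 FPM (SD 296) at pH 6.0 in complex I, and 521 FPM (SD 27.6) and 691 FPM (SD 28.4) in complex II. Complex III averaged 1206 FPM (SD 157) and 1207 FPM (SD 86.9), complex IV 2814 FPM (SD 409) and 2387 FPM (SD 247), and complex V 3999.9 FPM (SD 446) and 4039 FPM (SD 279.6). In NRK-49F the 4 acidosis sums lay above the 4 controls in complex II and below them in complex IV, at 2589 FPM or more against 2519 FPM or less, and overlapped with them in complexes I, III and V. The complex IV means leaned on 1 library in each group. The control N13 had 3427 FPM (others 2589 to 2648), and the acidosis library N11 had 2016 FPM (others 2504 to 2519).

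The difference between the lines in their response was tested as an interaction in the fit of all 16 libraries. The response was more positive in NRK-52E for 33 of 82 members (40.2%), against 19.3% of the 14679 genes tested, and more negative for 1 member (1.22%), Ndufs1, against 17.5% of genes. The median interaction was 0.59 over the members and -0.01 over all genes. By complex the more positive calls were 11 of 36 in complex I (median 0.46), 1 of 4 in complex II (median 0.09), 3 of 10 in complex III (median 0.41), 10 of 15 in complex IV (median 0.88) and 8 of 17 in complex V (median 0.67). Leaving out N3 lowered the count of 33 to 14, and in complexes I, IV and V to 4, 6 and 1, while without N4 it was 38. Of all genes, 2015 of 14926 were more positive without N3 and 2798 of 14870 without N4. The shares of complexes I and V without N3 lay below that of all genes. Without N3 the median of all genes also moved, to -0.12. The members' median then stood 0.58 above that of all genes, against 0.60 with all libraries. The negative call of Ndufs1 was lost without N6, N13 or N14. Library totals in place of TMM moved the median of all genes to -0.25 and that of the members to 0.34, with 18 members more positive and 1 more negative, turned the median of complex II to -0.15 (it was -0.01 without N8), and moved the split of all calls from 52.4% to 33.8% more positive in both tools. With protein-coding genes only in the fit the median of all genes was -0.12 and that of complex II was -0.01.

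**Figure D2:**
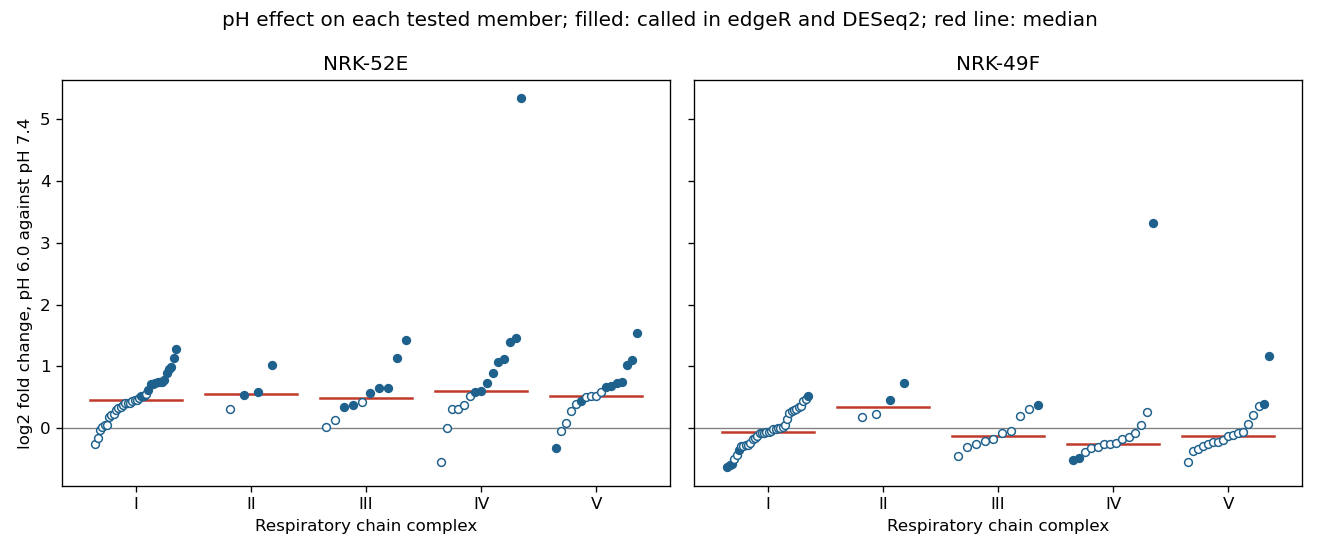
Log2 fold change of each tested member at pH 6.0 against pH 7.4 in NRK-52E and in NRK-49F, arranged by complex, where each point is 1 member from a fit of 8 libraries and filled points passed the test. Most points of NRK-52E lie above 0, with a median of 0.53, and the points of NRK-49F lie on both sides of 0, with a median of -0.08.

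Within complex I, the flavoprotein subunits at the tip of the matrix arm accept electrons from NADH. Ndufv1 carries the binding site for NADH, and its levels were 144, 131, 112 and 135 FPM in NRK-52E at pH 7.4, 132, 129, 129.9 and 155 FPM at pH 6.0, 328, 312, 387 and 371 FPM in NRK-49F at pH 7.4 and 329, 346, 362 and 307 FPM at pH 6.0. The libraries of the lines did not overlap at either pH, with NRK-49F higher, and within each line the pH groups overlapped. NRK-52E was lower at pH 7.4 (log2 fold change -1.42, SE 0.10, edgeR adjusted p = 3.7e-10) and at pH 6.0 (log2 fold change -1.32, SE 0.10, edgeR adjusted p = 9.5e-10). Ndufv3, an accessory subunit of the same module, is listed on chromosome 20 as Ndufv3.1 and in a low row on chromosome 13. Ndufv3.1 had 73.7, 66.1, 56.7 and 65.5 FPM in NRK-52E at pH 7.4 and 110.5, 93.8, 103 and 102 FPM at pH 6.0, and in NRK-49F 78.7, 78.5, 90.5 and 87.3 FPM and 60.6, 63.9, 55.0 and 39.6 FPM. The pH groups separated completely in both lines, upward in NRK-52E and downward in NRK-49F. It rose in NRK-52E (log2 fold change 0.63, SE 0.10, edgeR adjusted p = 2.1e-04) and fell in NRK-49F (log2 fold change -0.63, SE 0.14, edgeR adjusted p = 0.00247), and the interaction was 1.24 (SE 0.18, edgeR adjusted p = 1.7e-05). The row on chromosome 13 held at most 2.30 FPM in any library and passed no test. Ndufv2, which holds an iron-sulphur cluster, was higher in NRK-52E at pH 6.0 (log2 fold change 0.53), a call lost without N2, N3, N5 or N6, with the lowest value 0.42, and had a value of 0.02 in NRK-49F.

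The iron-sulphur subunits carry the electrons on towards ubiquinone. Ndufs1, the largest of them, had 102, 98.5, 99.5 and 105 FPM in NRK-52E at pH 7.4 and 86.1, 102, 112 and 116 FPM at pH 6.0, and 94.8, 82.6, 79.9 and 74.7 FPM in NRK-49F at pH 7.4 and 116, 114, 122 and 127 FPM at pH 6.0. All 4 acidosis libraries of NRK-49F lay above its 4 controls, whereas the groups of NRK-52E overlapped. Ndufs1 rose in NRK-49F (log2 fold change 0.52, SE 0.09, edgeR adjusted p = 5.2e-04), and it was the member whose response was more negative in NRK-52E, with an interaction of -0.51 (SE 0.14, edgeR adjusted p = 0.00476). Ndufs8, which binds iron-sulphur clusters, had 62.5, 53.0, 44.0 and 57.8 FPM in NRK-52E at pH 7.4 and 71.4, 60.8, 57.8 and 64.4 FPM at pH 6.0. In NRK-49F it had 218, 220.1, 287 and 220.2 FPM at pH 7.4 and 140.4, 181, 178 and 139 FPM at pH 6.0. The lines did not overlap at either pH, and in NRK-49F all acidosis libraries lay below all controls, of which N13 was highest. Ndufs8 was lower in NRK-52E than in NRK-49F at pH 7.4 (log2 fold change -2.12, SE 0.13, edgeR adjusted p = 4.6e-11) and at pH 6.0 (log2 fold change -1.34), and it fell in NRK-49F at pH 6.0 (log2 fold change -0.58, SE 0.13). Its interaction of 0.78 was no longer called without N3, at 0.60. Ndufs3, Ndufs4 and Ndufs7 rose in NRK-52E, with log2 fold changes of 0.52, 0.72 and 0.75. Each of these 3 calls was lost without N2, N3, N5 or N6, those of Ndufs3 and Ndufs7 also without N1 and that of Ndufs3 also without N7, and the lowest values were 0.47, 0.65 and 0.65.

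The remaining subunits of complex I surround this core. Ndufa13, also known as GRIM-19, is needed for the assembly of the complex, and it had 66.1, 55.5, 50.1 and 58.7 FPM in NRK-52E at pH 7.4 and 137, 92.0, 100.3 and 120.5 FPM at pH 6.0. In NRK-49F it had 105, 119.6, 175 and 129 FPM at pH 7.4 and 78.9, 98.0, 99.3 and 78.1 FPM at pH 6.0. The groups separated in opposite directions in the lines, with all acidosis libraries above the controls in NRK-52E and all below them in NRK-49F. Ndufa13 rose in NRK-52E (log2 fold change 0.95, SE 0.14, edgeR adjusted p = 1.5e-04) and fell in NRK-49F (log2 fold change -0.59, SE 0.15, edgeR adjusted p = 0.0061), and its interaction was 1.53 (SE 0.22, edgeR adjusted p = 1.7e-05). The call in NRK-49F was lost without N11, N13, N14, N15 or N16, and the value nearest 0 was -0.42, without N13. Ndufa7, an accessory subunit, showed the largest rise of complex I in NRK-52E, from 59.5, 47.3, 39.7 and 49.6 FPM at pH 7.4 to 128, 96.5, 98.1 and 161 FPM at pH 6.0. The acidosis libraries lay above the controls, with N3 and N8 highest. Its log2 fold change was 1.29 (SE 0.18, edgeR adjusted p = 1.1e-04) in NRK-52E and 0.44 (SE 0.14, edgeR adjusted p = 0.0187) in NRK-49F, where it was called only without N13 or N16. The interaction of 0.83 was lost without N2, N3, N5, N6, N8, N11, N13 or N16, and was lowest, at 0.66, without N8. Ndufa11, which holds the membrane arm together, had the lowest value of the complex in NRK-52E, -0.25 (edgeR adjusted p = 0.31), and was not called. In that line at pH 6.0, N8 had 73.2 FPM and the other libraries 41.9 to 45.4 FPM.

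Ndufa4 was first described in complex I and was later found with complex IV, and it is counted in complex I here by its symbol. It had 138, 110.2, 99.2 and 116 FPM in NRK-52E at pH 7.4 and 196, 163, 177 and 249.8 FPM at pH 6.0, so that the acidosis libraries lay above the controls. It rose in NRK-52E (log2 fold change 0.75, SE 0.15, edgeR adjusted p = 0.00105) and had a value of -0.05 in NRK-49F, and its interaction of 0.79 was lost without N3, at 0.68. The related Ndufa4l2 reached at most 0.428 FPM in any library. With Ndufa4 counted in complex IV, the NRK-52E medians of complexes I and IV were 0.45 and 0.67, against 0.46 and 0.61 with it in complex I.

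Ndufb8, an accessory subunit of the membrane arm, showed the largest difference between the lines among members with at least 10 FPM. Its levels were 32.3, 27.7, 20.3 and 30.4 FPM in NRK-52E at pH 7.4 and 37.6, 32.1, 30.3 and 48.1 FPM at pH 6.0, and 134, 135, 172 and 147 FPM in NRK-49F at pH 7.4 and 128, 150.3, 152 and 131 FPM at pH 6.0. Every NRK-49F library lay far above every NRK-52E library, and the pH groups overlapped in both lines. NRK-52E was lower at pH 7.4 (log2 fold change -2.41, SE 0.16, edgeR adjusted p = 9.0e-11) and at pH 6.0 (log2 fold change -1.94, SE 0.15, edgeR adjusted p = 1.4e-09). Ndufb6, a neighbour in the same arm, went the other way and was higher in NRK-52E at both, with log2 fold changes of 0.50 and 0.88, the former lost without N1, N6, N9, N10 or N14, with the lowest value 0.45. Among the 12 subunits of the B and C series, 4 (33.3%, against 28.2% of all genes) rose in NRK-52E at pH 6.0, namely Ndufb2 (log2 fold change 1.14), Ndufb9 (0.99), Ndufb6 (0.75) and Ndufb10 (0.71), of which Ndufb6 was lost without N5, at 0.68, and Ndufb10 without N2, N3, N5 or N6, with the lowest value 0.63. Of the 13 A subunits tested, 6 (46.2%) rose, namely Ndufa3 (0.79), Ndufa4, Ndufa5 (0.71), Ndufa6 (0.89), Ndufa7 and Ndufa13. The call of Ndufa3 was lost without N1, N2, N3, N5, N6 or N7, with the lowest value 0.73, and those of Ndufa5 and Ndufa6 without N5, at 0.60 and 0.80. Ndufa1, Ndufa2, Ndufa8, Ndufa9, Ndufa10l1.1, Ndufa12, Ndufb3, Ndufb4, Ndufb5, Ndufb7, Ndufb11, Ndufc1, Ndufc2 and Ndufs5 were called for pH in neither line, with values from -0.03 (Ndufa1) to 0.56 (Ndufc2) in NRK-52E and from -0.49 (Ndufa1) to 0.30 (Ndufb4) in NRK-49F. Of these, Ndufc2 was called in NRK-52E without N4, at 0.67, and Ndufa10l1.1 without N3, N4 or N8, with values from 0.31 to 0.51. The latter is listed on chromosome 9, whereas RefSeq has Ndufa10l1 on chromosome 6. Ndufa10l1 had 1 count in all, in N15.

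Complex II is also an enzyme of the citric acid cycle, succinate dehydrogenase, and is the one complex whose subunits are all encoded in the nucleus. Sdha, the flavoprotein that oxidises succinate, had 226, 229, 237 and 239 FPM in NRK-52E at pH 7.4 and 309, 326, 362 and 369 FPM at pH 6.0. In NRK-49F it had 189, 179, 180.1 and 177 FPM at pH 7.4 and 250.1, 242, 265 and 249 FPM at pH 6.0. The 4 libraries within each group lay close together, the acidosis libraries exceeded the controls in both lines, and NRK-52E exceeded NRK-49F at both values of pH. Sdha rose in NRK-52E (log2 fold change 0.53, SE 0.09, edgeR adjusted p = 2.7e-04) and in NRK-49F (log2 fold change 0.46, SE 0.08, edgeR adjusted p = 3.9e-04), and the interaction of 0.06 was not called (edgeR adjusted p = 0.655). For each line an exact permutation test, two-sided and on log2(FPM + 1), gave p = 0.0286, the smallest value that 4 against 4 libraries allow. Sdhb, the iron-sulphur subunit, had 73.8, 67.0, 55.3 and 70.1 FPM in NRK-52E at pH 7.4 and 136, 122, 138 and 152 FPM at pH 6.0, and 80.2, 81.2, 95.01 and 90.7 FPM and 99.97, 112, 108 and 93.2 FPM in NRK-49F. All acidosis libraries of NRK-52E lay above the controls, while in NRK-49F the groups overlapped through N13 and N16, though not with library totals in place of TMM. It rose in NRK-52E (log2 fold change 1.02, SE 0.11, edgeR adjusted p = 1.4e-05), was not called in NRK-49F (log2 fold change 0.24, SE 0.10, edgeR adjusted p = 0.057), and had an interaction of 0.77 (SE 0.14, edgeR adjusted p = 2.5e-04).

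The membrane anchors Sdhc and Sdhd hold the ubiquinone site of complex II. Sdhd had 104, 93.2, 90.4 and 98.3 FPM in NRK-52E at pH 7.4 and 156, 126, 138 and 167 FPM at pH 6.0, and 89.7, 82.9, 98.0 and 82.1 FPM and 130.4, 139, 150.3 and 172 FPM in NRK-49F. Acidosis libraries exceeded controls in both lines. Sdhd rose in NRK-52E (log2 fold change 0.59, SE 0.11, edgeR adjusted p = 6.3e-04) and in NRK-49F (log2 fold change 0.73, SE 0.10, edgeR adjusted p = 1.1e-04), and its interaction was -0.16 (edgeR adjusted p = 0.407). Sdhc had 118, 102, 96.1 and 112 FPM in NRK-52E at pH 7.4 and 119, 118, 127 and 172 FPM at pH 6.0, and 165, 156, 186 and 152 FPM and 176, 187, 191 and 199 FPM in NRK-49F. Its groups overlapped in both lines, those of NRK-49F not with library totals. Sdhc was not called for pH in NRK-52E (log2 fold change 0.31, SE 0.14, edgeR adjusted p = 0.0638) or in NRK-49F (log2 fold change 0.18, SE 0.09, edgeR adjusted p = 0.129). It was lower in NRK-52E than in NRK-49F at pH 7.4 (log2 fold change -0.62), a call that library totals in place of TMM removed at -0.23, and at pH 6.0 (log2 fold change -0.51).

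In complex III, Cyc1 is cytochrome c1, which hands electrons to cytochrome c. It had 98.7, 91.0, 83.0 and 93.1 FPM in NRK-52E at pH 7.4 and 147, 128, 129.8 and 179 FPM at pH 6.0, and 96.2, 98.3, 117 and 112 FPM and 135, 145, 145 and 135 FPM in NRK-49F. The acidosis libraries lay above the controls in both lines. Cyc1 rose in NRK-52E (log2 fold change 0.66, SE 0.12, edgeR adjusted p = 6.8e-04) and in NRK-49F (log2 fold change 0.38, SE 0.09, edgeR adjusted p = 0.00415), and the latter call was lost without N9, N10, N12 or N15, with the lowest value 0.33, without N9. The Rieske iron-sulphur protein Uqcrfs1 rose in NRK-52E (log2 fold change 0.58, SE 0.11) and had a value of 0.19 in NRK-49F. The core proteins Uqcrc1 and Uqcrc2, which face the matrix, rose in NRK-52E by 0.34 and 0.38. The call of Uqcrc1 was lost without N2, N3, N5, N6, N7 or N8, with the lowest value 0.26, and that of Uqcrc2 without N1, N2, N5 or N7, with the lowest value 0.31. Uqcr10, a small accessory subunit, had 47.6, 37.2, 25.0 and 39.0 FPM in NRK-52E at pH 7.4 and 118, 82.7, 89.9 and 112 FPM at pH 6.0, and 62.3, 66.8, 99.8 and 77.6 FPM and 68.1, 75.9, 86.2 and 71.8 FPM in NRK-49F. Every acidosis library of NRK-52E was above every control, with N5 lowest, whereas the groups of NRK-49F overlapped. Uqcr10 rose in NRK-52E (log2 fold change 1.42, SE 0.19, edgeR adjusted p = 6.2e-05), its value in NRK-49F was -0.04 (edgeR adjusted p = 0.84), and its interaction was 1.44 (SE 0.25, edgeR adjusted p = 1.1e-04). Uqcrq and Uqcrh, also small subunits, rose in NRK-52E by 1.13 and 0.65, the latter lost without N2, N3, N5 or N6, with the lowest value 0.53.

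The small subunit Uqcr11 had 93.9, 82.7, 68.5 and 93.3 FPM in NRK-52E at pH 7.4 and 73.0, 63.8, 73.98 and 136 FPM at pH 6.0, where N8 stood far above the other 3 libraries. Its log2 fold change was 0.02 (SE 0.23, edgeR adjusted p = 0.928), and it was the lowest of complex III in that line. Uqcrb is listed in a row on chromosome 1 and, as Uqcrb.1, in a row on chromosome 7, and the ratio of the first to the second ran from 0.969 to 1.81 over the 16 libraries. The reference annotation places the gene on chromosome 7, and reads that fit both places could have been counted at each, so that these values are uncertain. The pH values of Uqcrb.1 were 0.42 (NRK-52E) and -0.44 (NRK-49F), and those of Uqcrb 0.14 and -0.30, none of them called.

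Complex IV, cytochrome c oxidase, passes electrons to oxygen, and its nuclear subunits surround a core made in the mitochondrion. Several exist as isoforms of different tissues. Cox4i1, the common form of an early assembling subunit, had 374, 308, 238 and 334 FPM in NRK-52E at pH 7.4 and 488, 327, 352 and 472 FPM at pH 6.0, and 475, 478, 611 and 459.8 FPM and 315, 393, 380.1 and 347 FPM in NRK-49F. The acidosis libraries of NRK-49F lay below all controls, and those of NRK-52E overlapped with the controls. Cox4i1 fell in NRK-49F (log2 fold change -0.51, SE 0.12, edgeR adjusted p = 0.00337), a call lost without N11 at -0.45, and was not called in NRK-52E (log2 fold change 0.37, SE 0.17, edgeR adjusted p = 0.0718). Its interaction was 0.87 (SE 0.21, edgeR adjusted p = 0.00253), and it was lost without N3, at 0.66. Cox4i2, the form known from the lung and from responses to low oxygen, had 104 counts over the 4 NRK-52E libraries at pH 7.4 against 1 count in NRK-49F, and 68 against 2 at pH 6.0. The ratios of NRK-52E to NRK-49F were 89.0 (95% interval for counting error only, 15.6 to 3548) at pH 7.4 and 40.5 (10.8 to 341) at pH 6.0. Cox4i2 gave 0.375% of the summed Cox4 counts in NRK-52E at pH 7.4 (SD 0.0936, n = 4) and 0.199% at pH 6.0 (SD 0.0884).

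Cox5a and Cox5b also sit close to the catalytic core. Cox5a had 97.7, 74.6, 64.3 and 76.6 FPM in NRK-52E at pH 7.4 and 189, 140.4, 156 and 204 FPM at pH 6.0, and 93.0, 98.1, 139.7 and 98.2 FPM and 113, 131, 133 and 141 FPM in NRK-49F. In NRK-52E the groups separated, and in NRK-49F the control N13 lay within the acidosis range. Cox5a rose in NRK-52E (log2 fold change 1.13, SE 0.15, edgeR adjusted p = 7.9e-05), and in NRK-49F (log2 fold change 0.26, SE 0.13, edgeR adjusted p = 0.125) it was called only without N13, at 0.42. The interaction of 0.85 was lost without N3, at 0.69. Cox5b rose in NRK-52E (log2 fold change 0.61, SE 0.18, edgeR adjusted p = 0.00973) and fell in NRK-49F (log2 fold change -0.48, SE 0.13, edgeR adjusted p = 0.00978), with an interaction of 1.07 (SE 0.23). Its call in NRK-52E was lost without any library but N4, with the lowest value 0.47, and that in NRK-49F without any but N12, with the value nearest 0 at -0.36.

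Cox6a1, the liver-type form of a subunit that modulates the enzyme, had 169, 138, 115 and 157 FPM in NRK-52E at pH 7.4 and 470.2, 309, 359 and 404 FPM at pH 6.0, and 234, 234, 349 and 276 FPM and 235, 276, 289.8 and 243 FPM in NRK-49F. Every acidosis library of NRK-52E lay well above every control, and the groups of NRK-49F overlapped. Cox6a1 rose in NRK-52E (log2 fold change 1.40, SE 0.15, edgeR adjusted p = 1.7e-05), its value in NRK-49F was -0.08 (edgeR adjusted p = 0.629), and the interaction was 1.47 (SE 0.21, edgeR adjusted p = 2.1e-05). At pH 7.4 it was lower in NRK-52E than in NRK-49F (log2 fold change -0.92), and at pH 6.0 it was higher (0.55), the latter call being lost without N3, N11 or N16, with the lowest value 0.45, without N3. Cox6a2, the heart and muscle form, was near the limit of detection at pH 7.4. It had 3, 1, 0 and 0 counts in NRK-52E at pH 7.4 and 44, 35, 37 and 50 counts at pH 6.0. In NRK-49F it had 4, 1, 2 and 8 counts at pH 7.4 and 44, 35, 68 and 44 counts at pH 6.0. Every acidosis library held more counts than any control of its line. The ratio of pH 6.0 to pH 7.4 was 44.8 (95% interval for counting error only, 17.2 to 166) in NRK-52E and 9.86 (5.83 to 18.0) in NRK-49F. Cox6a2 was called higher in both lines, but it entered both fits through the libraries at pH 6.0. These calls are therefore no separate test of the rise, and they are included in the counts of members called higher. Cox6a2 gave 0.519% (SD 0.0729, n = 4) of the summed Cox6a counts in NRK-52E at pH 6.0 and 0.744% (SD 0.125) in NRK-49F. Cox6b1, at 0.31 (NRK-52E) and -0.25 (NRK-49F), and Cox6c, at 0.52 and -0.38, were not called for pH (Cox6c was in NRK-52E without N4, at 0.61), and the further row Cox6b1.1 followed Cox6b1 at a ratio of 0.115 to 0.153 in every library, so that these may share reads. The testis form Cox6b2 had 29 counts in NRK-52E at pH 6.0, 3 in NRK-49F at pH 6.0 and none at pH 7.4, and Cox6c.ps1 had no count.

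Cox7 and Cox8 are the smallest subunits of complex IV. Cox7a1, the heart and muscle form, had 0.89, 0.819, 0.912 and 1.62 FPM in NRK-52E at pH 7.4 and 3.06, 3.42, 2.95 and 2.35 FPM at pH 6.0, and 1.66, 2.02, 1.84 and 1.50 FPM and 1.73, 1.33, 1.43 and 1.50 FPM in NRK-49F. Acidosis libraries lay above controls in NRK-52E, of which N6 was the highest control, and overlapped with them in NRK-49F. It rose in NRK-52E (log2 fold change 1.45, SE 0.27, edgeR adjusted p = 6.8e-04), and the interaction was 1.68 (SE 0.35, edgeR adjusted p = 7.2e-04). No gene named Cox7a2, the common form, was listed. Cox7a2l, which joins complexes III and IV into supercomplexes, rose in NRK-52E from 142, 113, 101 and 120.2 FPM to 246, 184, 202 and 265 FPM (log2 fold change 0.90, SE 0.14, edgeR adjusted p = 2.3e-04). In NRK-49F its value was -0.17 and the interaction was 1.06. Cox7c and Cox7a2l2, listed on chromosome 8, whereas RefSeq has a gene of that name on chromosome 14, rose in NRK-52E by 0.59 and 1.08, the call of Cox7c being lost without N1, N2, N3, N5, N6 or N8, with the lowest value 0.46. Cox8a, the common form of the smallest subunit, rose in that line by 0.74 (SE 0.14), had a value of -0.15 in NRK-49F and an interaction of 0.86, while Cox8b and Cox8c reached at most 0.461 FPM in any library. Cox7b did not follow the others in NRK-52E, with 53.2, 45.1, 37.8 and 47.5 FPM at pH 7.4, 46.5, 32.1, 42.1 and 64.8 FPM at pH 6.0 and a log2 fold change of 0.00 (SE 0.20). Its testis form Cox7b2 reached at most 0.188 FPM.

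The ATP synthase consists of the F1 head, which makes ATP, the c-ring in the membrane that turns with the flow of protons, a stalk that holds the head in place, and small membrane subunits. Atp5f1a and Atp5f1b form the catalytic ring of the head together, and their values in NRK-52E had opposite signs. Atp5f1a had 566, 516, 484 and 535 FPM in NRK-52E at pH 7.4 and 430.2, 391.7, 425 and 457 FPM at pH 6.0, and 536, 519, 579 and 557 FPM and 460.3, 464, 536 and 581 FPM in NRK-49F. Atp5f1b had 689, 656, 604 and 682 FPM in NRK-52E at pH 7.4 and 1153, 992, 1046 and 1037 FPM at pH 6.0, and 680.5, 653, 761 and 775 FPM and 858, 849, 900.2 and 763 FPM in NRK-49F. In NRK-52E all acidosis libraries were below the controls for Atp5f1a and above them for Atp5f1b, and in NRK-49F the groups of both genes overlapped. Atp5f1a fell in NRK-52E (log2 fold change -0.32, SE 0.09, edgeR adjusted p = 0.0085), a call lost without N1, N2, N3, N4, N6 or N7 at values from -0.34 to -0.29, and also lost with the second number of the library names as a covariate, at -0.32. Atp5f1b rose in NRK-52E (log2 fold change 0.67, SE 0.09, edgeR adjusted p = 7.5e-05) and was not called in NRK-49F (log2 fold change 0.22, SE 0.10, edgeR adjusted p = 0.0806). Its interaction of 0.44 passed the test (edgeR adjusted p = 0.00994), but not when any library other than N4 or N10 was left out, with the lowest value 0.28, and that of Atp5f1a, -0.22, did not (edgeR adjusted p = 0.182). Atp5f1d and Atp5f1e, of the central stalk, rose in NRK-52E by 0.73 and 0.74, the latter lost without N2, N3, N5, N6 or N8, with the lowest value 0.58, and Atp5f1c had a value of 0.28 that was not called.

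Atp5if1 encodes the inhibitor that binds the F1 head when the matrix becomes acidic and keeps it from splitting ATP. It had 66.5, 53.1, 45.7 and 61.7 FPM in NRK-52E at pH 7.4 and 167, 122, 163 and 217 FPM at pH 6.0, and 137, 148, 192 and 155 FPM and 309, 381, 409.5 and 343 FPM in NRK-49F. The acidosis libraries lay well above the controls in both lines, and NRK-49F lay above NRK-52E at pH 6.0 without overlap. Atp5if1 rose in NRK-52E (log2 fold change 1.54, SE 0.18, edgeR adjusted p = 2.3e-05) and in NRK-49F (log2 fold change 1.17, SE 0.13, edgeR adjusted p = 1.3e-05), which in both lines was the largest rise of complex V. The interaction of 0.35 (SE 0.22) was not called (edgeR adjusted p = 0.19). NRK-52E was lower than NRK-49F at pH 7.4 (log2 fold change -1.48, SE 0.16) and at pH 6.0 (-1.12, SE 0.16).

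The same c subunit is made from Atp5mc1, Atp5mc2 and Atp5mc3, which differ in their import sequences. Atp5mc1 had 60.1, 49.4, 47.6 and 53.7 FPM in NRK-52E at pH 7.4 and 120.5, 99.6, 101 and 137 FPM at pH 6.0, and 120.2, 113, 155 and 125 FPM and 161, 184, 175 and 164 FPM in NRK-49F. Acidosis libraries lay above controls in both lines. It rose in NRK-52E (log2 fold change 1.104, SE 0.13, edgeR adjusted p = 2.6e-05) and in NRK-49F (log2 fold change 0.40, SE 0.11, edgeR adjusted p = 0.00845), where the call was lost when N9, N10, N11, N12, N14, N15 or N16 was left out, with values from 0.35 to 0.43. The interaction was 0.69 (SE 0.17), lost without N3 at 0.55. Atp5mc2 was not called in NRK-52E (log2 fold change 0.53, edgeR adjusted p = 0.013), though it was without N1, N4 or N7, with at most 0.63, and was not called in NRK-49F (-0.21). Its interaction of 0.72 was lost without N2, N3, N5, N6, N11 or N13, with the lowest value 0.56, without N3. For Atp5mc3 the values were -0.04 (NRK-52E) and -0.06 (NRK-49F), and it was called in neither. The share of Atp5mc1 in the summed counts of the 3 genes therefore went from 12.55% (SD 0.452, n = 4) at pH 7.4 to 19.5% (SD 0.965) at pH 6.0 in NRK-52E, and from 15.6% (SD 0.566) to 21.7% (SD 1.55) in NRK-49F, without overlap in either line. The share of Atp5mc3 went from 29.7% (SD 1.524) to 20.5% (SD 1.97) in NRK-52E and was 18.4% (SD 0.314) and 18.5% (SD 1.75) in NRK-49F, while Atp5mc2 went from 66.0% (SD 0.782) to 59.8% (SD 0.221) in NRK-49F and was 57.7% (SD 1.95) and 60.05% (SD 1.67) in NRK-52E.

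In the peripheral stalk, Atp5pd had 136, 116, 88.3 and 130.4 FPM in NRK-52E at pH 7.4 and 178, 138, 162 and 207 FPM at pH 6.0, and 317, 319.6, 441 and 319 FPM and 230.1, 286, 305 and 269 FPM in NRK-49F. The lines did not overlap at either pH, with NRK-49F higher and N13 the highest library. Atp5pd was lower in NRK-52E at pH 7.4 (log2 fold change -1.57, SE 0.15, edgeR adjusted p = 3.2e-08) and at pH 6.0 (log2 fold change -0.69, SE 0.15). The effect of pH was not called in NRK-52E (log2 fold change 0.53, edgeR adjusted p = 0.0115), except without N4, at 0.61, nor in NRK-49F (-0.37, edgeR adjusted p = 0.0305). The interaction of 0.89 was called (edgeR adjusted p = 0.00204) but not without N3, at 0.76. Atp5pb and Atp5pf rose in NRK-52E by 0.44 and 0.68, the former lost without N1, N2, N3, N5 or N6, with the lowest value 0.38, and Atp5po had 0.09. Of the small membrane subunits, Atp5md, listed on chromosome 10 and placed by RefSeq, as Atp5mk, on chromosome 1, rose in NRK-52E by 1.02 (SE 0.19), and Atp5me, Atp5mf and Atp5mg had 0.40, 0.50 and 0.59 without passing the test. Atp5me had the most negative value of complex V in NRK-49F, -0.54 (edgeR adjusted p = 0.0471).

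The lines were compared with each other at each pH in the fit of all 16 libraries. At pH 7.4, 52 of 82 members (63.4%) were lower in NRK-52E than in NRK-49F, against 31.9% of all genes, and 3 (3.66%) were higher, Sdha, Ndufb6 and Cox4i2, against 27.9% of all genes. Cox4i2 had 1 count over the NRK-49F libraries at pH 7.4 and 2 at pH 6.0. It entered this fit through NRK-52E, so that its higher calls, counted at both values of pH, are no separate test of a line difference. The median was -0.69 over the members and -0.05 over all genes. At pH 6.0, 13 members (15.9%) were lower, against 32.5% of all genes, and 9 were higher, against 30.7%. The median was -0.08 over the members, which turned to 0.07 with library totals in place of TMM and to 0.03 without N4 and was -0.24 without N8, and -0.02 over all genes. The lower calls at pH 7.4 were 21 of 36 in complex I (median -0.64), 1 of 4 in complex II (median -0.13, which turned to 0.26 with library totals and to 0.00 without N3), 6 of 10 in complex III (median -0.75), 11 of 15 in complex IV (median -0.92) and 13 of 17 in complex V (median -0.74). At pH 6.0 the medians were -0.17, 0.18, 0.03, 0.03 and -0.22 in the order of the complexes, with -0.05 in complexes III and IV without N8, and 7, 1, 2 and 3 members of complexes I, II, III and V were lower. The lower calls at pH 7.4 ranged from 37, without N13, to 57, without N8, and those at pH 6.0 from 12, without N4, to 29, without N8. With library totals the median of all genes moved to 0.34 at pH 7.4 and 0.13 at pH 6.0, the members called numbered 4 higher and 32 lower at pH 7.4 and 13 higher and 13 lower at pH 6.0 in edgeR, and the share of higher among all calls went from 46.7% to 65.9% at pH 7.4 in both tools. Relative to all genes, the members' median was -0.64 at pH 7.4 and -0.05 at pH 6.0 under both scalings, the latter turning to 0.05 without N4 and reaching -0.20 without N8. These comparisons and those of pH share their libraries, so that their calls are not independent of each other. Members lower at both values of pH numbered 13, and among members with at least 10 FPM the largest differences at pH 6.0 were those of Ndufb8 (-1.94), Ndufs8 (-1.34), Ndufv1 (-1.32), Atp5if1 (-1.12) and Ndufa12 (-1.09).

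Lists of related genes gave the setting for these values. Of all genes, 28.2% were higher and 28.5% lower at pH 6.0 in NRK-52E, and 18.4% and 19.4% in NRK-49F. Of 47 assembly factors tested, 10 (21.3%) were higher and 7 (14.9%) lower in NRK-52E (median 0.14, which turned to -0.07 with library totals), and 13 (27.7%) were higher and 3 (6.38%) lower in NRK-49F (median 0.13). The number lower in NRK-52E became 15 without N8. Cox17, which carries copper to complex IV, rose by 2.01 (NRK-52E) and 1.44 (NRK-49F), and Ndufaf4, an assembly factor of complex I, rose by 1.34 and 1.60. Cox18, which inserts a core subunit of complex IV into the membrane, rose by 1.78 in NRK-52E, and Tmem186 and Coa4 fell there, at -1.05 and -0.79, the latter lost without any library but N8 at values from -0.85 to -0.68, and with the second number as a covariate at -0.81. In NRK-49F, Tmem126b and Sdhaf2, assembly factors of complexes I and II, fell, at -0.56 and -0.50, and Sdhaf2 fell in NRK-52E too, at -0.64.

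Electron carriers and the enzymes around ubiquinone split as well, with 7 of 20 higher and 4 lower in NRK-52E (median 0.11, which turned to -0.10 with library totals and to -0.09 without N8) and 6 higher and 3 lower in NRK-49F (median 0.20). Cycs, the somatic cytochrome c that links complexes III and IV, had 85.1, 67.9, 68.3 and 79.3 FPM in NRK-52E at pH 7.4 and 251, 212, 257 and 316 FPM at pH 6.0, and 64.0, 62.7, 94.9 and 75.5 FPM and 111, 121, 113 and 112 FPM in NRK-49F. The groups separated in both lines. In NRK-52E Cycs rose by 1.77 (SE 0.14), in NRK-49F by 0.60 (SE 0.13), with an interaction of 1.15. Coq10b, a protein of ubiquinone function, rose by 1.92 in NRK-52E, and Coq8b rose by 0.84 in NRK-49F. Dhodh, which feeds electrons from pyrimidine synthesis to ubiquinone, fell, at -2.29 (NRK-52E) and -0.98 (NRK-49F). Etfdh, which feeds electrons from fatty acid oxidation, fell, at -0.51 in NRK-52E, and Coq2, an enzyme of ubiquinone synthesis, fell, at -0.42 in NRK-49F, lost without N9 or N15 at -0.40.

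Regulators of mitochondrial biogenesis were higher for 9 and lower for 4 of 19 genes tested in NRK-52E (median 0.53, and 0.32 with library totals), where the number lower was 1 without N2, and higher for 3 and lower for 2 of 20 in NRK-49F (median 0.12), where the number lower was at most 1 whichever library was left out. Esrra, a nuclear receptor that drives genes of oxidative phosphorylation, had 43.5, 37.1, 32.3 and 33.3 FPM in NRK-52E at pH 7.4 and 138, 118, 114 and 77.7 FPM at pH 6.0, and 105, 92.1, 94.5 and 116 FPM and 113, 88.4, 109 and 81.9 FPM in NRK-49F. Acidosis libraries exceeded controls in NRK-52E and overlapped with them in NRK-49F. Esrra rose by 1.59 (SE 0.16) in NRK-52E, with a value of -0.07 in NRK-49F and an interaction of 1.65. Nrf1, a transcription factor of respiratory chain genes, had 27.7, 27.2, 28.3 and 28.4 FPM in NRK-52E at pH 7.4 and 45.6, 48.1, 40.7 and 34.0 FPM at pH 6.0, and 28.2, 27.9, 27.7 and 29.5 FPM and 21.6, 23.8, 21.1 and 23.1 FPM in NRK-49F. The groups separated upward in NRK-52E, where they overlapped with library totals, and downward in NRK-49F. Nrf1 rose in NRK-52E (0.57) and fell in NRK-49F (-0.36), with an interaction of 0.92. Its call in NRK-49F was lost whichever library was left out, at values from -0.39 to -0.31, and with the second number as a covariate, at -0.36. Of the factor that binds ETS sites, Gabpb1 rose in NRK-52E (0.77) and fell in NRK-49F (-0.55), whereas Gabpa, its DNA-binding partner, fell in NRK-52E (-0.53) and had -0.27 in NRK-49F. The call of Gabpb1 in NRK-49F was lost without N9, N10, N12, N13 or N14, with the value nearest 0 at -0.44, and that of Gabpa without N2, N5, N6 or N7, at -0.49. The coactivator Ppargc1a had no count in NRK-52E and at most 0.859 FPM in NRK-49F, and its relative Pprc1 rose by 0.78 and 0.77 in the lines. Among genes acting on the mitochondrial genome, Mterf3 rose (1.64) and Tefm fell (-1.04) in NRK-52E, Polg fell in NRK-52E (-0.59) and rose in NRK-49F (0.50), Polrmt rose in NRK-52E (0.77) as well as NRK-49F (0.51), and Tfam was called in neither line. The calls of Polg were lost without N1, N2, N3, N5 or N7 in NRK-52E (-0.59 to -0.53) and without N9 in NRK-49F (0.48), and that of Polrmt in NRK-49F without N9, N10, N11, N12, N13 or N15 (lowest value 0.43).

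Markers of mitochondrial content outside the respiratory chain were higher for 7 and lower for 1 of 16 genes in NRK-52E (median 0.38; 3 higher and median 0.18 with library totals), and higher for 2 and lower for 1 in NRK-49F (median 0.00, positive with library totals at 0.05). Cs, citrate synthase, had 92.5, 89.2, 81.5 and 85.6 FPM in NRK-52E at pH 7.4 and 135, 162, 158 and 98.6 FPM at pH 6.0, and 81.3, 70.5, 58.3 and 81.3 FPM and 121, 106, 114 and 120.5 FPM in NRK-49F. The groups separated in both lines, and N8 was the lowest acidosis library of NRK-52E, where the groups overlapped with library totals. Cs rose by 0.64 (NRK-52E) and 0.65 (NRK-49F). The phosphate carrier Slc25a3 and the outer membrane channel Vdac2 rose in NRK-52E by 0.68 and 0.66, the ADP/ATP carrier Slc25a4 fell there, at -0.61, and in NRK-49F the import receptor Tomm70 rose by 0.92 and the channel Vdac3 fell, at -0.39, though it rose in NRK-52E by 0.41, a call lost without N2, N5 or N6, with the lowest value 0.35. The import receptor Tomm20 was called in neither line (0.05 and -0.13). The call of Slc25a4 was lost without N1, N2, N3 or N7 (-0.63 to -0.54), and that of Vdac3 in NRK-49F without N9, N10, N11, N12, N13 or N15 (-0.42 to -0.30).

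Cytosolic ribosomal protein genes were higher for 45 of 70 in NRK-52E at pH 6.0 (median 0.73) and lower for 5 in NRK-49F (median -0.22). Their interaction was called positive for 54 of 70 (77.1%, against 19.3% of all genes; median 0.96). At pH 7.4, 69 (98.6%, against 31.9% of all genes) were lower in NRK-52E than in NRK-49F (median -1.0998), and at pH 6.0, 7 (10%, against 32.5%) were lower and 1 higher (median -0.19). Mitochondrial ribosomal protein genes were higher for 29 and lower for 3 of 74 in NRK-52E (median 0.33), and higher for 11 and lower for 5 in NRK-49F (median 0.05). Their interaction was called positive for 12 (16.2%) and negative for 1 (median 0.33), and between the lines 49 (66.2%) were lower in NRK-52E at pH 7.4 (median -0.75) and 32 (43.2%) at pH 6.0 (median -0.38). These genes were added after the members' values had been seen, and what they share with the members was not tested.

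The promoters of the members were examined as well. By symbol, 82 of the 89 members had a RefSeq gene (build GRCr8) on the same chromosome. Windows of 250 bases before to 50 after the gene start were searched for 71 of these. Others with such a gene, among them Cyc1, Cox6a1 and Atp5pd, were not searched. Both strands were searched for 3 motifs known from respiratory chain genes, that of NRF1, CCGGAAG of the ETS family and AAGATGGCG of YY1. The end of the ETS motif can overlap the start of the YY1 motif. The NRF1 motif was in 13 of 71 windows (18.3%), against 4.71% of 27457 promoters, the ETS motif in 19 (26.8%), against 9.22%, and the YY1 motif in 9 (12.7%), against 1.93%. At least 1 of them was in 36 windows (50.7%), against 14.3% of all promoters. Members higher in NRK-52E at pH 6.0 held at least 1 motif in 16 of 37 windows (43.2%), and the other members tested in 20 of 29 (69%). Complex IV had a motif in 3 of 14 windows, all of them ETS. A match is a description of the letters only, and binding was not measured. Sdha rose in both lines and held 3 NRF1 matches. Ndufa13 rose in NRK-52E and fell in NRK-49F, and Cox4i1 was called for pH only in NRK-49F, where it fell. Ndufa13 and Cox4i1 held 2 ETS matches each. Ndufb8 differed widely between the lines and held a YY1 match. Atp5me was not called for pH and held NRF1 and ETS matches. The windows of Sdha, Ndufa13, Cox4i1, Ndufb8 and Atp5me are shown. They are written 5′ to 3′ on the strand of the gene with the matches in capitals, from chr1:30764303-30764602 (plus), chr16:19560276-19560575 (plus), chr19:65630133-65630432 (plus), chr1:253362887-253363186 (minus) and chr14:1464610-1464909 (plus).
Sdha: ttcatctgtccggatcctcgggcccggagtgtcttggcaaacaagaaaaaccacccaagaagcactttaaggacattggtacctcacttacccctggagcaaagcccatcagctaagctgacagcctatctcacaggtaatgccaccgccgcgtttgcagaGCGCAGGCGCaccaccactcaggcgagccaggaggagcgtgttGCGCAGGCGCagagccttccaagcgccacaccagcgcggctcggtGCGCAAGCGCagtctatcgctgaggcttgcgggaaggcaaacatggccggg
Ndufa13: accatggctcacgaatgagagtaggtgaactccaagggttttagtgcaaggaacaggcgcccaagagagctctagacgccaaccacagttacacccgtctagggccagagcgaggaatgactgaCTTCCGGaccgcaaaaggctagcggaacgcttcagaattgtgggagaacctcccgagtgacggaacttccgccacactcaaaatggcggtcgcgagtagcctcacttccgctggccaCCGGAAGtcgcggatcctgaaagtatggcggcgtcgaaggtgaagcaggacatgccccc
Cox4i1: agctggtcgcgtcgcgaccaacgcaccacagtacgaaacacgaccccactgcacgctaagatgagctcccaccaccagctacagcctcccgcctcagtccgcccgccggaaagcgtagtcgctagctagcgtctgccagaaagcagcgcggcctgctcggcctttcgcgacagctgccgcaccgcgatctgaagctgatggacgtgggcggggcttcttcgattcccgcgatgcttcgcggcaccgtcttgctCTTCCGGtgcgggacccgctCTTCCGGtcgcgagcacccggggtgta
Ndufb8: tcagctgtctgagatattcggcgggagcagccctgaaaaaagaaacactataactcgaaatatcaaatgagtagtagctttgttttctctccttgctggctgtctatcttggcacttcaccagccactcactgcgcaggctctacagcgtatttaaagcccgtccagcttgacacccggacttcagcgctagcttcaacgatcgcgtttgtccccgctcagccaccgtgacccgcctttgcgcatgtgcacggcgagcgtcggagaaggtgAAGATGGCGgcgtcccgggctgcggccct
Atp5me: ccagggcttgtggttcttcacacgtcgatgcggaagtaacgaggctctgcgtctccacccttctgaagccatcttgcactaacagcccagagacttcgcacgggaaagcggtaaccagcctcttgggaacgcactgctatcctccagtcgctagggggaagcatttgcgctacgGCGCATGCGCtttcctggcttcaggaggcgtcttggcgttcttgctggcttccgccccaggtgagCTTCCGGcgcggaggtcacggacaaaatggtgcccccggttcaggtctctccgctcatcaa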

How the data were processed

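The counts per Ensembl gene of 16 libraries were used as deposited. The authors' methods name paired poly(A) reads, tophat2 and featureCounts with reads of several places counted, whereas their processing notes name HISAT2 2.1.0 and featureCounts, both on rn6, and the files do not settle which was used. Tests were run here in R 4.3.3 with edgeR 4.0.16 (quasi-likelihood, TMM, filterByExpr) and DESeq2 1.42.0 (Wald), on the 8 libraries of a line for pH, and on all 16 for the lines and the interaction, and were tested on simulated data. Members without a test for low counts were Cox6b2, Cox6c.ps1, Cox7b2, Cox8b, Cox8c, Ndufa10l1 and Ndufa4l2, and in NRK-49F also Cox4i2. The members and lists were chosen with earlier results of these data known.

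Named members were Sdha to Sdhd, the isoform sets and, among genes with a mean of at least 10 FPM in a group compared, the members of complexes I, III, IV and V with the highest and lowest log2 fold change in each line and the largest interactions and line differences. With the same limit, up to 2 called rises and 2 called falls, the largest, were named from each other list, so that larger falls at lower levels, such as those of Coq4 and Coq7, were passed over. Other names were chosen after their values were seen. The isoform sets had 7 of 13 (53.8%) higher in NRK-52E (median 0.74). Of the epithelial markers, 1 was higher and 4 lower of 5 tested in NRK-52E, and 7 of 9 fibroblast markers were lower there. Of all genes, 28.2% were higher and 28.5% lower in that line. Alternatives changed the scaling, the filter, the tool, the threshold, the gene universe, the libraries and the membership. Those with library totals in both tools, and without the doubled listings Cox6b1.1, Uqcrb and Ndufv3, were chosen after seeing the data. Surf1, Sco2, Pet117 and Timm23 were not listed by name. The values of one member are counted in the totals and are not reported here.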

Additional observations from a re-analysis of the deposited data

Results flagged for a closer look

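The 156 groups of 4 libraries examined were not independent, since they share the same 16 libraries and the sums contain the genes. For independent groups chance alone gives about 1 in 20, or 7.8, so that this number is no test here. In 20 of the 156 groups, 1 library lay far from the other 3 by Dixon's criterion. Most of these were N13 among the NRK-49F controls, higher than the others in the sums of complex III (1441 FPM, others 1121 to 1136), complex IV (3427 FPM, others 2589 to 2648) and all members (14304 FPM, others 11116 to 11589). The same library was highest for Atp5mc2 (619 FPM), Atp5mc3 (179 FPM), Atp5pd (441 FPM), Cox4i1 (611 FPM), Cox5a (139.65 FPM), Cox6b1 (248 FPM), Ndufa11 (112 FPM), Ndufa4 (198 FPM), Ndufa7 (74.99 FPM), Ndufs8 (287 FPM) and Uqcrb.1 (58.9 FPM). N11 was lowest of the NRK-49F libraries at pH 6.0 for the sum of complex IV (2016 FPM, others 2504 to 2519) and for Atp5mc2 (414 FPM). N6 was highest of the NRK-52E controls for Cox7a1 (1.62 FPM), and N8 was highest of the NRK-52E libraries at pH 6.0 for Ndufa11 (73.2 FPM), Ndufv1 (155 FPM) and Uqcr11 (136 FPM).

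The effect of pH differed between the lines by the interaction test for 17 of the 39 members named by rule. The rule picks the largest pH effects in either line and the largest interactions, so that this count is on genes chosen in part for it. Of all 82 members tested, 33 (40.2%) were more positive in NRK-52E and 1 (1.22%) more negative, against 19.3% and 17.5% of all genes. The differences, NRK-52E minus NRK-49F on the log2 scale, were Atp5mc1 0.69, Atp5mc2 0.72, Atp5pd 0.89, Cox4i1 0.87, Cox5a 0.85, Cox6a1 1.47, Cox7a1 1.68, Cox7a2l 1.06, Cox8a 0.86, Ndufa13 1.53, Ndufa4 0.79, Ndufa7 0.83, Ndufs1 -0.51, Ndufs8 0.78, Ndufv3.1 1.24, Sdhb 0.77 and Uqcr10 1.44. The cause was not tested.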

How the results depend on the processing

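Over the members named by rule, 3983 of the values under alternatives stayed called or uncalled as reported, 121 of them with a change of sign and no call either way. A further 89 gained a call, 119 lost it, and 1 gained a call with the opposite sign: Atp5f1a between the lines at pH 7.4 was 0.33 with library totals in both tools (chosen after seeing the data), against -0.06. The cause was not tested. Which libraries form pairs is not stated. The second number in the library names is shared between the pH groups of a line and has no stated meaning, and as a covariate it left the NRK-52E counts at 37 higher and 0 lower in edgeR with DESeq2. Genes of few counts, such as Cox6b2 or Cox8c, were removed by the filter, and permutation of their NRK-52E libraries between the pH groups gave exact p = 0.143 and 1.

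With library totals only, in edgeR or in both tools, the medians of complexes I to V for the interaction were 0.22, -0.15, 0.17, 0.63 and 0.43, and for NRK-52E against NRK-49F at pH 7.4 they were -0.25, 0.26, -0.36, -0.53 and -0.35. For NRK-52E at pH 6.0 against pH 7.4 the medians of complexes II, III and V were 0.35, 0.28 and 0.32, and for NRK-52E against NRK-49F at pH 6.0 that of complex II was 0.33. The complex sums with library totals only had ratios of NRK-52E to NRK-49F at pH 7.4 of 0.732, 1.27, 0.809, 0.695 and 0.870 in complexes I to V and 0.7998 over all members, and a ratio of NRK-52E at pH 6.0 to pH 7.4 of 1.29 in complex II. Within number 21 only, the NRK-52E medians of all members and of complexes I, III and V were 0.29, 0.22, 0.34 and 0.31, and within number 22 only those of all members and of complexes I and V were 0.73, 0.72 and 0.74. Within number 20 only, the NRK-49F median of complex III was 0.0348 and that of all members 0.0284.

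For the members called in NRK-52E, within number 21 or 22 only there were 11 higher and 0 lower, the covariate gave 0 lower, and library totals in both tools gave 2 lower. For the members called in NRK-49F, within number 20 only there were 11 higher and 3 lower, within number 21 only 3 higher and 1 lower, and FDR below 0.05 gave 11 lower. The counts over all genes within each number are given above with the results of each line. For the members called in NRK-52E against NRK-49F at pH 7.4, library totals gave 32 lower, and 7 higher in both tools. At pH 6.0, FDR below 0.05 gave 15 higher and 20 lower, and library totals in both tools gave 16 higher. For the interaction, library totals gave 18 higher, and 2 lower in both tools, and no filter on low counts gave 0 lower in edgeR with DESeq2.

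For the list of assembly factors, library totals gave a NRK-52E median of -0.0660. In NRK-49F, 7 were lower with FDR below 0.05 and 6 with DESeq2 alone. For the list of biogenesis regulators in NRK-49F, FDR below 0.05 gave 6 higher, DESeq2 alone gave 5 higher, and 1 was lower with DESeq2 size factors, with library totals, with no filter on low counts, with at least 1 CPM in at least 4 libraries, with protein-coding genes only and with the covariate. In NRK-52E the median of that list was 0.32 with library totals and 0.40 with all 16 libraries in one fit. For the list of electron carriers the NRK-52E median was -0.10 with library totals. For the list of mitochondrial content markers in NRK-52E, library totals gave 3 higher and a median of 0.18, and 2 were lower with FDR below 0.05, with library totals in both tools and with all 16 libraries. In NRK-49F 4 were lower with FDR below 0.05 and 2 with DESeq2 alone.

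Leaving out 1 library at a time gave 26 to 47 members called higher and 0 to 1 lower in NRK-52E, 5 to 11 higher and 2 to 5 lower in NRK-49F, 2 to 4 higher and 37 to 57 lower between the lines at pH 7.4, 6 to 13 higher and 12 to 29 lower at pH 6.0, and 14 to 38 higher and 0 to 1 lower for the interaction. Without 1 library at a time, the medians had these ranges. For all members in NRK-49F, -0.13 to 0.02, and between the lines at pH 6.0, -0.24 to 0.03. For complex I, -0.10 to 0.07 in NRK-49F, and for complex III 0.26 to 0.50 for the interaction. For the lists, assembly factors lower in NRK-52E ranged from 4 to 15, biogenesis regulators lower from 1 to 4 in NRK-52E and from 0 to 1 in NRK-49F, electron carriers lower from 1 to 3 in NRK-49F with a median of -0.0875 to 0.179 in NRK-52E, and mitochondrial content markers lower from 0 to 2 in each line.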
